A study of Homo sapiens with 42 samples.

Results

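The genes described here are 42 genes of the lysosome, out of 18417 genes measured in HL-60 cells on 42 microarrays. The members were listed by name: 8 cathepsins and other peptidases, 8 proteins of the lysosomal membrane, 13 glycosidases and sulfatases, 6 proteins of lipid breakdown and lipid transfer, 5 subunits of the proton pump, and the pair TFEB and GRN. Each gene was read from the probe set that names this gene alone and has the highest mean over all arrays. One member, NEU1, had 3 such probe sets and the other 41 had 1. All 42 members were measured. Of these, 33 lay in the top 40% of genes by mean level, the part of the arrays in which a gene could be called changed. The other 9 (CTSH, CLN3, GAA, NAGLU, SGSH, ARSA, FUCA1, SMPD1 and TFEB) lay below that filter, so that none of them could be called in any comparison.

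HL-60 is an established human acute myeloid leukemia line of FAB type M2 in which MYC is amplified. There were 14 groups of 3 arrays. In the inhibitor experiment (18 arrays, 6 groups), cells were treated for 3 days with 0.1 µM ATRA (all-trans retinoic acid), with 10 µM GSK343 plus ATRA, with 2.5 µM HKMTI-1-005 plus ATRA, with either inhibitor alone, or were left untreated. GSK343 is an inhibitor of the H3K27 methyltransferase EZH2, and HKMTI-1-005 inhibits EZH2 together with the H3K9 methyltransferases EHMT1 and EHMT2. In the knockdown experiment (24 arrays, 8 groups), cells carried the EZH2 hairpin shEZH2#1, the hairpin shEZH2#2 or the non-targeting hairpin Scr, or were wild type (WT), each with and without ATRA. Hairpins were delivered by lentivirus and the selected cells were used in bulk, so that a group is a mixed population and not a clone. EZH2 KD below means the average of both hairpins. The methods call the arrays of a group biological triplicates, without saying whether cultures, transductions or days differed. The p-values rest on a spread per gene that was pooled over all 14 groups after the batch correction. They do not measure the spread of the compared groups alone, and the scatter of the knockdown arrays enters the tests of the inhibitor experiment.

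Lysosomes are acidic organelles in which hydrolases break down proteins, glycans, lipids and nucleic acids that arrive by endocytosis, phagocytosis or autophagy. A proton pump, the V-ATPase, sets the low pH that these enzymes need, and highly glycosylated membrane proteins such as LAMP1 and LAMP2 line the organelle. Many lysosomal genes are targets of TFEB, a transcription factor that binds the CLEAR motif, an extended E-box around CACGTG. In myeloid cells lysosomal enzymes also serve the digestion of engulfed particles, and the azurophil granules of granulocytes are related organelles.

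Promoter windows that hold the E-box are shown because they show which members carry the sequence that TFEB is known to bind. RefSeq promoter sequences (GRCh38.p14, 250 bases before to 50 bases after the annotated start) matched 29 of the 42 members. CACGTG was found in 9 of these 29 promoters (31%), against 2030 of all 27305 promoters (7.43%). TCACGTGA was found in 6 of 29 (20.7%), against 1.04% of all promoters. Both motifs read the same on both strands, and the longer contains the shorter. Capitals mark the longer motif where it is present and the shorter one otherwise, in each window, which is written on the strand of the gene.
CTSA: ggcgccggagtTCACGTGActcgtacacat
CTSD: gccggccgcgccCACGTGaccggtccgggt
LAMP1: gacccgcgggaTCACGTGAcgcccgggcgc
CD63: ccgggtaggggcCACGTGgccctggccggg
MCOLN1: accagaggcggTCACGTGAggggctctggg
NEU1: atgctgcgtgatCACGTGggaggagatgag
These windows lie at chr20:45891298-45891327 (plus strand), chr11:1763957-1763986 (minus), chr13:113297199-113297228 (plus), chr12:55729172-55729201 (minus), chr19:7522571-7522600 (plus) and chr6:31862930-31862959 (minus), in the order printed. The first base of the printed motif stands 26 bases before the annotated start in CTSA, 47 in CTSD, 29 in LAMP1, 180 in CD63, 42 in MCOLN1 and 126 in NEU1. The promoters of CTSA, LAMP1 and MCOLN1 hold further matches that are not printed. The promoters of GAA, CLN3 and ATP6V0D1 also hold CACGTG. Of the 9 members with CACGTG in this window, 3 were called in at least 1 of the ATRA comparisons below, and of the 20 matched members without it, 8 were. GAA and CLN3, which are among these 9, lay below the expression filter and could not be called. How many of the 20 lay below it was not counted. The motif is a match of letters, and whether TFEB binds there was not measured.

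The deposited values are log2 levels, and all levels and differences below are on that scale. DHRS3, a retinoic acid target, averaged 10.52 ± 0.122 with ATRA and 6.50 ± 0.229 in untreated cells (SD, n = 3 each), CD38 averaged 10.69 ± 0.378 and 8.11 ± 0.0996, and ITGAM (CD11b) averaged 7.54 ± 0.305 and 6.07 ± 0.19. EZH2 read 9.13, 9.20 and 9.49 with shEZH2#1 and 8.98, 9.56 and 9.33 with shEZH2#2, against 10.26, 10.44 and 10.39 with Scr, log2 fold changes of -1.09 and -1.07 (adjusted p = 0.000115 and 0.000249, limma). With ATRA the falls of EZH2 were -0.96 for shEZH2#1 and -0.60 for shEZH2#2 against Scr with ATRA (adjusted p = 0.000294 and 0.0428). Of 6 measured promyelocyte markers all 6 passed the expression filter (MPO averaged 12.95), and of 5 lymphoid markers none did. Of 9 macrophage markers only CD68 passed it, and CD14 stayed between 4.27 and 5.23. Of 7 measured neutrophil markers 3 passed it, ITGAM, CYBB and CSF3R. The others, FPR1, CEACAM8, LTF and MMP9, averaged 4.74, 4.44, 4.53 and 4.20 over all arrays. The promyelocyte list includes MYC, which is amplified in this line. The mean of the neutrophil markers was 6.78 with ATRA and 6.14 in untreated cells, and that of the promyelocyte markers was 9.08 and 9.83. The neutrophil mean was higher with ATRA in all 7 pairs of groups. The promyelocyte mean was lower with ATRA in 6 of them, but was 9.96 with shEZH2#1 plus ATRA and 9.91 with shEZH2#1. The part of these lists in the results below was not tested. In bulk RNA, more cells of a kind and more RNA per cell cannot be told apart.

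Most lysosome genes read above the median of all genes in HL-60 cells. The median of the members' mean levels was 8.77, against 5.68 over all genes, and single members ran from 4.78 (SGSH, a heparan sulfate sulfatase) to 11.55 (LAPTM5, a lysosomal membrane protein of blood cells). CTSC, the peptidase that activates granule serine proteases, averaged 11.29, and PPT1, a palmitoyl-protein thioesterase, averaged 11.08. In the 18 inhibitor arrays the members averaged 8.45 to 8.98, and the genes past the expression filter 8.81 to 8.98. Probe sets differ in brightness, so that these levels describe the arrays and do not rank genes by transcript number. CTSD varied most over the 42 arrays, with a range of 3.34, followed by TPP1 (3.04) and NPC2 (2.99). The smallest ranges were those of NAGLU (0.56), TFEB (0.58) and SCARB2 (0.78).

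Averaged over the 42 members, the level of an array was 8.81 ± 0.052 with ATRA and 8.48 ± 0.03 in untreated cells (SD, n = 3 each). It was 8.75 ± 0.063 with GSK343 plus ATRA and 8.49 ± 0.036 with GSK343, and 8.90 ± 0.068 with HKMTI-1-005 plus ATRA and 8.60 ± 0.043 with HKMTI-1-005. In the inhibitor experiment the ATRA-treated and ATRA-free arrays of each pair did not overlap in this mean. The knockdown arrays were more scattered: 9.16 ± 0.124 with shEZH2#1 plus ATRA and 8.51 ± 0.199 with shEZH2#1, 9.05 ± 0.336 with shEZH2#2 plus ATRA and 8.55 ± 0.318 with shEZH2#2, 8.68 ± 0.154 with Scr plus ATRA and 8.15 ± 0.375 with Scr, and 8.72 ± 0.293 with WT plus ATRA and 8.56 ± 0.057 with WT.

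**Figure D1:**
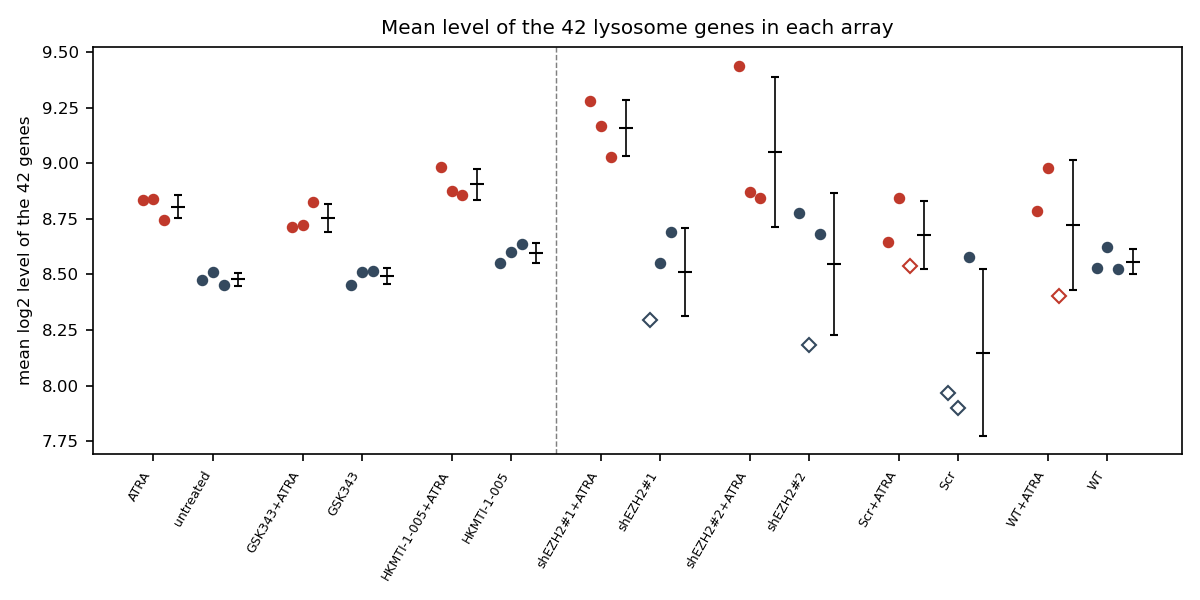
Mean log2 level of the 42 lysosome genes in each array, by group, with the inhibitor experiment left of the dashed line (red, with ATRA; dark, without; bars, group mean ± SD, n = 3). Open diamonds mark 6 knockdown arrays with a high median over all probe sets, which lie at 7.90 to 8.54, while the other 18 knockdown arrays lie at 8.52 to 9.44.

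Part of that scatter went with 6 knockdown arrays: Scr replicates 1 and 2, Scr plus ATRA replicate 3, WT plus ATRA replicate 3, shEZH2#1 replicate 1 and shEZH2#2 replicate 2. In these arrays the median probe set read 5.47 to 5.56. It was 5.31 to 5.44 in the remaining 18 arrays of that experiment, and 5.36 to 5.46 among the 18 inhibitor arrays. Their mean over the genes past the expression filter was 8.64 to 8.79, against 8.85 to 9.00 in the other knockdown arrays. In 5 of the 6 arrays the mean of the lysosome genes was the lowest of its group, and the sixth, Scr replicate 1, had the next lowest after Scr replicate 2 (7.97 and 7.90, against 8.58 in Scr replicate 3). Results that rest on these arrays are given below with and without them. Without them Scr is left with 1 array, and Scr plus ATRA, WT plus ATRA, shEZH2#1 and shEZH2#2 with 2 each. A comparison with Scr then takes its spread from the other groups, and a missing call there rests on that 1 array.

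ATRA raised a set of lysosomal hydrolases and their cofactors in the inhibitor-free cells of the inhibitor experiment. Of the 42 members, 9 were called higher and none lower (adjusted p of 0.05 or less over all genes and a fold of at least 1.3, limma), a share of 21.4%, where 2.09% of all genes were called higher and 3.14% lower. Over the genes past the expression filter these shares were 5.23% and 7.85%. The median log2 fold change of the members was 0.28, against 0.0046 over all genes, and 37 of 42 had a positive sign. The calls fell on 4 of 8 peptidases (CTSA, CTSB, CTSD and CTSZ), 1 of 8 membrane proteins (CD63), 2 of 13 glycosidases and sulfatases (GUSB and ARSB), 1 of 6 lipid genes (PSAP) and GRN. No proton pump subunit was called with all arrays. In WT cells of the knockdown experiment, under the same ATRA treatment, 3 members were called higher (0.532% of all genes were).

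Among the peptidases, CTSD had the largest rise. This aspartic protease read 11.36, 11.21 and 10.81 with ATRA, against 9.41, 9.36 and 9.52 in untreated cells, a log2 fold change of 1.70 (SE 0.334, adjusted p = 0.00105, limma). The cysteine protease CTSB read 10.04, 9.96 and 9.66 with ATRA, against 8.93, 8.83 and 8.89 in untreated cells (1.00, SE 0.185, adjusted p = 0.000501). The groups did not overlap in either gene, and both calls held without any single array. CTSZ, a carboxypeptidase, read 8.59, 8.65 and 8.44 with ATRA and 7.93, 7.95 and 7.81 in untreated cells (0.66, SE 0.153, adjusted p = 0.00502). CTSA, the carboxypeptidase that protects beta-galactosidase and neuraminidase, read 11.01, 10.78 and 10.85 with ATRA and 10.31, 10.21 and 10.22 in untreated cells (0.63, SE 0.198, adjusted p = 0.0421). The CTSA groups did not overlap, but its call was lost without any 1 of the 6 arrays. The other peptidases were not called: CTSC had a log2 fold change of 0.23, CTSS 0.04 and TPP1 0.40 (adjusted p = 0.526, 0.932 and 0.641).

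CTSH, an aminopeptidase below the expression filter, had the opposite sign. It read 5.03, 4.74 and 4.68 with ATRA and 5.15, 5.22 and 5.21 in untreated cells. Its log2 fold change was negative in all 7 ATRA comparisons, from -0.70 to -0.08, with adjusted p-values between 0.0763 and 0.907.

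PSAP had the most precise rise. It encodes the precursor of the saposins, the small cofactors of sphingolipid hydrolases, and read 11.13, 11.12 and 11.16 with ATRA, against 10.20, 10.32 and 10.12 in untreated cells (0.92, SE 0.116, adjusted p = 2.91e-06). GRN, whose product progranulin is cleaved to granulins in the lysosome, read 11.03, 10.85 and 11.10 with ATRA and 10.16, 10.03 and 10.05 in untreated cells (0.92, SE 0.236, adjusted p = 0.0114). Groups did not overlap in either gene, but the GRN call was lost without ATRA replicate 1 or untreated replicate 2. GUSB, the beta-glucuronidase, read 9.63, 9.67 and 9.72 with ATRA and 8.79, 8.92 and 9.07 in untreated cells (0.75, SE 0.169, adjusted p = 0.00412). ARSB, a sulfatase of dermatan and chondroitin sulfate, read 8.68, 8.29 and 8.09 with ATRA and 7.72, 7.29 and 7.68 in untreated cells (0.79, SE 0.216, adjusted p = 0.0173), a call lost without ATRA replicate 1 or untreated replicate 2. The tetraspanin CD63 read 9.98, 9.94 and 9.55 with ATRA and 9.30, 9.34 and 9.16 in untreated cells (0.56, SE 0.125, adjusted p = 0.00378). The GUSB and CD63 calls held without any single array.

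The classical lysosome marker and the transcription factor were not called. LAMP1 read 9.73, 9.53 and 9.61 with ATRA and 9.27, 9.30 and 9.36 in untreated cells, without overlap, and its log2 fold change of 0.31 did not pass the test (adjusted p = 0.259). It was positive in all 7 ATRA comparisons, from 0.23 to 0.40, and called in none. TFEB read 5.83, 5.70 and 5.65 with ATRA and 5.56, 5.66 and 5.62 in untreated cells, overlapping groups with a difference of 0.11 (adjusted p = 0.637). Its mRNA lay below the expression filter, and the arrays say nothing of the protein or of where in the cell it is. The lipase LIPA, which frees cholesterol and fatty acids from their esters, had a negative log2 fold change of -0.47 that did not pass the test (adjusted p = 0.224).

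**Figure D2:**
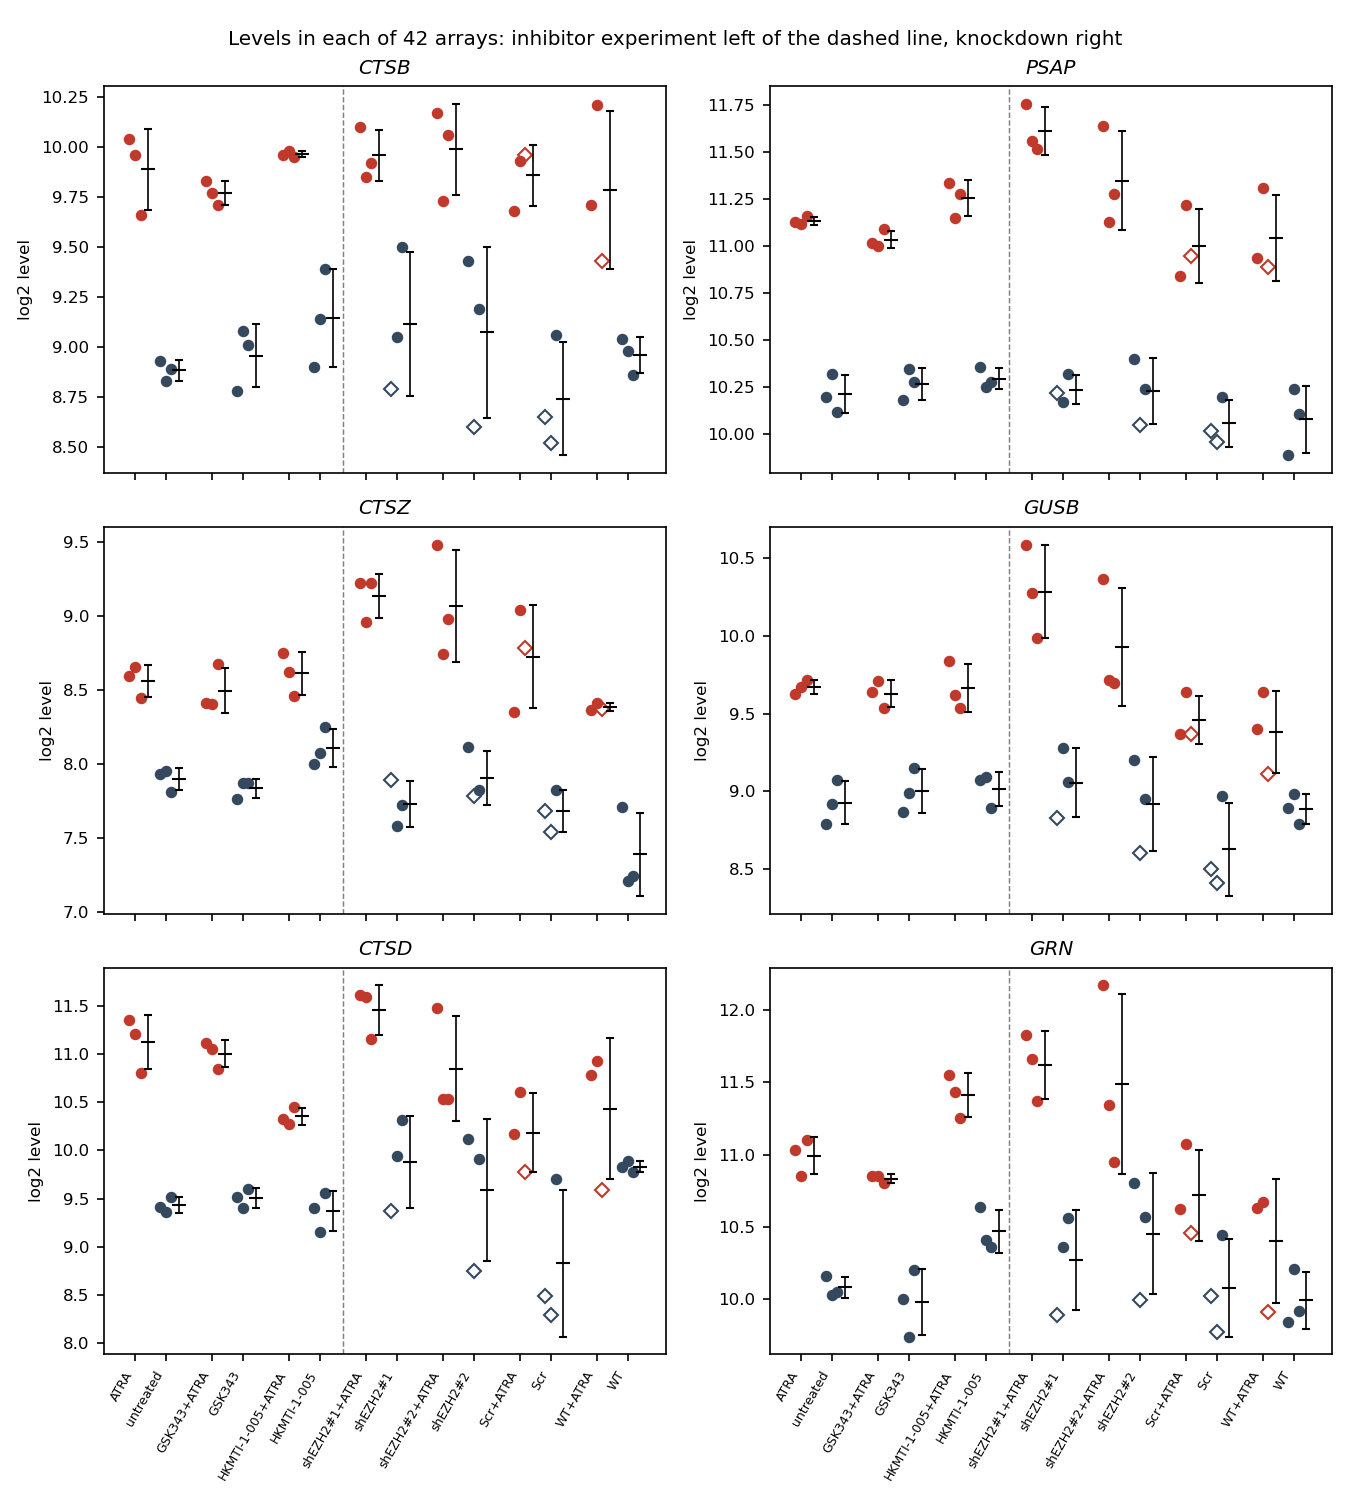
Log2 level of CTSB, PSAP, CTSZ, GUSB, CTSD and GRN in each of the 42 arrays, by group (red, with ATRA; dark, without; open diamonds, the 6 knockdown arrays of high median; bars, group mean ± SD, n = 3). For PSAP the ATRA-treated arrays lie at 10.84 or above and the ATRA-free arrays at 10.40 or below.

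The same treatment was repeated in 6 further settings, in which each ATRA-treated group had its own ATRA-free control. Members called higher numbered 7 with GSK343 (1.34% of all genes were called higher), 5 with HKMTI-1-005 (0.95%), 3 in WT cells (0.532%), 10 with Scr (1.51%), 13 with shEZH2#1 (1.96%) and 10 with shEZH2#2 (1.78%). None was called lower in any of the 7, where the shares of all genes called lower were 2.82% with GSK343, 0.668% with HKMTI-1-005, 0.32% in WT cells, 0.483% with Scr, 1.5% with shEZH2#1 and 1.57% with shEZH2#2. Median log2 fold changes of the members were 0.19 with GSK343, 0.22 with HKMTI-1-005, 0.13 in WT cells, 0.59 with Scr, 0.62 with shEZH2#1 and 0.52 with shEZH2#2, where the median over all genes lay between -0.02 and 0.01. CTSB and PSAP were called in all 7 comparisons, CTSZ and GUSB in 6, CTSD and GRN in 5, CTSA in 4 and CD63 in 3. LAMP2, GLA, HEXA, ARSB, NPC2 and ASAH1 were called in 2, CTSC and LAPTM5 in 1, and the other 26 in none. Of these 57 calls, 30 held without any single array: 6 of 9 for ATRA against untreated cells, 4 of 7 with GSK343, 1 of 5 with HKMTI-1-005, 2 of 3 in WT cells, 4 of 10 with Scr, 8 of 13 with shEZH2#1 and 5 of 10 with shEZH2#2.

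None of the 5 proton pump subunits is among these 16 genes, but that rests on the choice of arrays. ATP6V0D1 was positive in all 7 comparisons (0.15 to 0.83), as was ATP6V1A (0.16 to 0.72). Without the 6 arrays of high median ATP6V0D1 was called higher in 4 of the 7, those of untreated, GSK343, HKMTI-1-005 and shEZH2#1 cells.

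PSAP rose in every setting. With GSK343 plus ATRA it read 11.02, 11.00 and 11.09, against 10.18, 10.35 and 10.28 with GSK343 (0.76, adjusted p = 6.78e-05). With HKMTI-1-005 plus ATRA it read 11.34, 11.15 and 11.28, against 10.36, 10.25 and 10.28 with HKMTI-1-005 (0.96, adjusted p = 1.43e-06). Neither pair overlapped. WT cells gave 10.94, 11.31 and 10.89 with ATRA and 9.89, 10.24 and 10.11 without (0.97, adjusted p = 1.83e-06), and Scr cells gave 10.84, 11.22 and 10.95 with ATRA and 10.02, 9.96 and 10.20 without (0.94, adjusted p = 3.02e-06). The hairpin cells had the largest values, with 11.76, 11.56 and 11.52 for shEZH2#1 plus ATRA against 10.22, 10.17 and 10.32 for shEZH2#1 (1.38, adjusted p = 6.09e-10). For shEZH2#2 they were 11.64, 11.13 and 11.28 with ATRA and 10.40, 10.05 and 10.24 without (1.12, adjusted p = 5.55e-08). All 7 PSAP calls held without any single array.

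CTSB read 9.83, 9.77 and 9.71 with GSK343 plus ATRA, against 8.78, 9.08 and 9.01 with GSK343 (0.81, adjusted p = 0.00523). It read 9.96, 9.98 and 9.95 with HKMTI-1-005 plus ATRA, against 8.90, 9.14 and 9.39 with HKMTI-1-005 (0.82, adjusted p = 0.00697). In WT cells it read 9.71, 10.21 and 9.43 with ATRA and 9.04, 8.98 and 8.86 without (0.82, adjusted p = 0.0125), a call lost without WT plus ATRA replicate 2 or WT replicate 3. The groups stayed apart in each of these pairs. The call with HKMTI-1-005 was lost without HKMTI-1-005 replicate 1. CTSB read 9.68, 9.93 and 9.96 with Scr plus ATRA, against 8.65, 8.52 and 9.06 with Scr (1.11, adjusted p = 0.000282). It read 10.10, 9.85 and 9.92 with shEZH2#1 plus ATRA, against 8.79, 9.05 and 9.50 with shEZH2#1 (0.84, adjusted p = 0.00339). For shEZH2#2 it read 10.17, 9.73 and 10.06 with ATRA and 9.43, 8.60 and 9.19 without (0.91, adjusted p = 0.00162). None of these 3 pairs overlapped, and the shEZH2#1 call was lost without shEZH2#1 replicate 1.

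CTSZ read 8.36, 8.41 and 8.37 with ATRA in WT cells and 7.71, 7.21 and 7.24 without (0.99, adjusted p = 0.000125). It read 8.35, 9.04 and 8.78 with Scr plus ATRA, against 7.68, 7.54 and 7.82 with Scr (1.05, adjusted p = 5.13e-05). With shEZH2#1 plus ATRA it read 9.22, 8.96 and 9.22, against 7.89, 7.58 and 7.72 with shEZH2#1 (1.41, adjusted p = 1.19e-07). The groups stayed apart, as they did in the other 3 pairs. CTSZ read 9.48, 8.74 and 8.98 with shEZH2#2 plus ATRA and 8.11, 7.78 and 7.82 with shEZH2#2 (1.16, adjusted p = 3.86e-06). It read 8.41, 8.40 and 8.67 with GSK343 plus ATRA and 7.76, 7.87 and 7.87 with GSK343 (0.66, adjusted p = 0.00608). With HKMTI-1-005 plus ATRA it read 8.75, 8.62 and 8.46, against 8.00, 8.07 and 8.25 with HKMTI-1-005, and this difference of 0.50 did not pass the test (adjusted p = 0.0725). All 6 CTSZ calls held without any single array.

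CTSD differed more between settings. It read 11.12, 11.05 and 10.85 with GSK343 plus ATRA and 9.52, 9.40 and 9.60 with GSK343 (1.50, adjusted p = 0.00424). It read 10.33, 10.28 and 10.45 with HKMTI-1-005 plus ATRA and 9.40, 9.15 and 9.56 with HKMTI-1-005, groups that did not overlap but whose difference of 0.98 did not pass the test (adjusted p = 0.126). In WT cells it read 10.78, 10.93 and 9.59 with ATRA and 9.83, 9.89 and 9.78 without (0.60, adjusted p = 0.591). There 2 ATRA-treated arrays lay above and 1, one of the 6 arrays of high median, lay below all WT arrays. Without those 6 arrays the CTSD change in WT cells was 1.02 and passed the test (adjusted p = 0.00441). CTSD read 10.17, 10.61 and 9.78 with Scr plus ATRA and 8.49, 8.29 and 9.70 with Scr (1.37, adjusted p = 0.0183). It read 11.62, 11.59 and 11.16 with shEZH2#1 plus ATRA and 9.37, 9.94 and 10.32 with shEZH2#1 (1.58, adjusted p = 0.00235). With shEZH2#2 plus ATRA it read 11.48, 10.53 and 10.54, against 10.12, 8.75 and 9.91 with shEZH2#2 (1.26, adjusted p = 0.0202). These groups did not overlap, and the shEZH2#1 call held without any single array. The Scr call was lost without Scr plus ATRA replicate 2, Scr replicate 1 or Scr replicate 2, and without the 6 arrays the Scr change was 0.69 (adjusted p = 0.466, 1 Scr array). The shEZH2#2 call was lost without shEZH2#2 plus ATRA replicate 1 or shEZH2#2 replicate 2, and when arrays were centred.

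GRN read 10.85, 10.85 and 10.80 with GSK343 plus ATRA and 10.00, 9.74 and 10.20 with GSK343 (0.85, adjusted p = 0.0217). It read 11.55, 11.43 and 11.25 with HKMTI-1-005 plus ATRA and 10.64, 10.41 and 10.36 with HKMTI-1-005 (0.94, adjusted p = 0.019). Each of these calls was lost on leaving out any 1 of 4 arrays. In WT cells GRN read 10.63, 10.67 and 9.91 with ATRA and 9.84, 10.21 and 9.92 without, overlapping groups that were not called (0.41, adjusted p = 0.602). With Scr plus ATRA it read 10.62, 11.07 and 10.46, against 10.02, 9.77 and 10.44 with Scr (0.64, adjusted p = 0.158). GRN was called in both hairpin lines. It read 11.83, 11.66 and 11.37 with shEZH2#1 plus ATRA and 9.89, 10.36 and 10.56 with shEZH2#1 (1.35, adjusted p = 0.000236). It read 12.17, 11.34 and 10.95 with shEZH2#2 plus ATRA and 10.80, 9.99 and 10.57 with shEZH2#2 (1.03, adjusted p = 0.00582), a call lost without shEZH2#2 plus ATRA replicate 1 or shEZH2#2 replicate 2.

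GUSB read 10.59, 10.28 and 9.99 with shEZH2#1 plus ATRA and 8.83, 9.28 and 9.06 with shEZH2#1 (1.23, adjusted p = 7.44e-06), its largest rise. It read 10.37, 9.72 and 9.70 with shEZH2#2 plus ATRA and 9.20, 8.60 and 8.95 with shEZH2#2 (1.02, adjusted p = 0.000134). With Scr plus ATRA it read 9.37, 9.64 and 9.37, against 8.50, 8.41 and 8.97 with Scr (0.83, adjusted p = 0.00349). These 3 calls held without any single array, while those with the inhibitors did not. GUSB read 9.64, 9.71 and 9.54 with GSK343 plus ATRA and 8.87, 8.99 and 9.15 with GSK343 (0.63, adjusted p = 0.0184), a call lost without replicate 1 or 2 of either group. It read 9.84, 9.62 and 9.54 with HKMTI-1-005 plus ATRA and 9.07, 9.09 and 8.89 with HKMTI-1-005 (0.65, adjusted p = 0.0258), a call that held only without HKMTI-1-005 plus ATRA replicate 3. In WT cells GUSB read 9.40, 9.64 and 9.11 with ATRA and 8.89, 8.98 and 8.79 without and was not called (0.49, adjusted p = 0.211). No GUSB pair overlapped.

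CTSA read 11.49, 11.29 and 11.17 with shEZH2#1 plus ATRA and 10.12, 10.44 and 10.67 with shEZH2#1 (0.91, adjusted p = 0.00323), its 1 call that held without any single array. It read 11.60, 10.86 and 10.71 with shEZH2#2 plus ATRA and 10.53, 10.02 and 10.54 with shEZH2#2 (0.69, adjusted p = 0.0346). With Scr plus ATRA it read 10.61, 10.74 and 10.54, against 9.79, 9.61 and 10.35 with Scr (0.72, adjusted p = 0.0405). The shEZH2#2 call was lost without shEZH2#2 plus ATRA replicate 1 or shEZH2#2 replicate 2, and the Scr call held only without Scr replicate 3. CTSA was not called in the remaining pairs. It read 10.65, 10.63 and 10.76 with GSK343 plus ATRA and 10.26, 10.19 and 10.46 with GSK343 (0.38, adjusted p = 0.313), and 11.14, 11.00 and 10.84 with HKMTI-1-005 plus ATRA and 10.56, 10.29 and 10.40 with HKMTI-1-005 (0.57, adjusted p = 0.138). In WT cells it read 10.88, 11.15 and 10.26 with ATRA and 10.09, 10.42 and 10.18 without (0.54, adjusted p = 0.273), the only CTSA pair that overlapped.

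**Figure D3:**
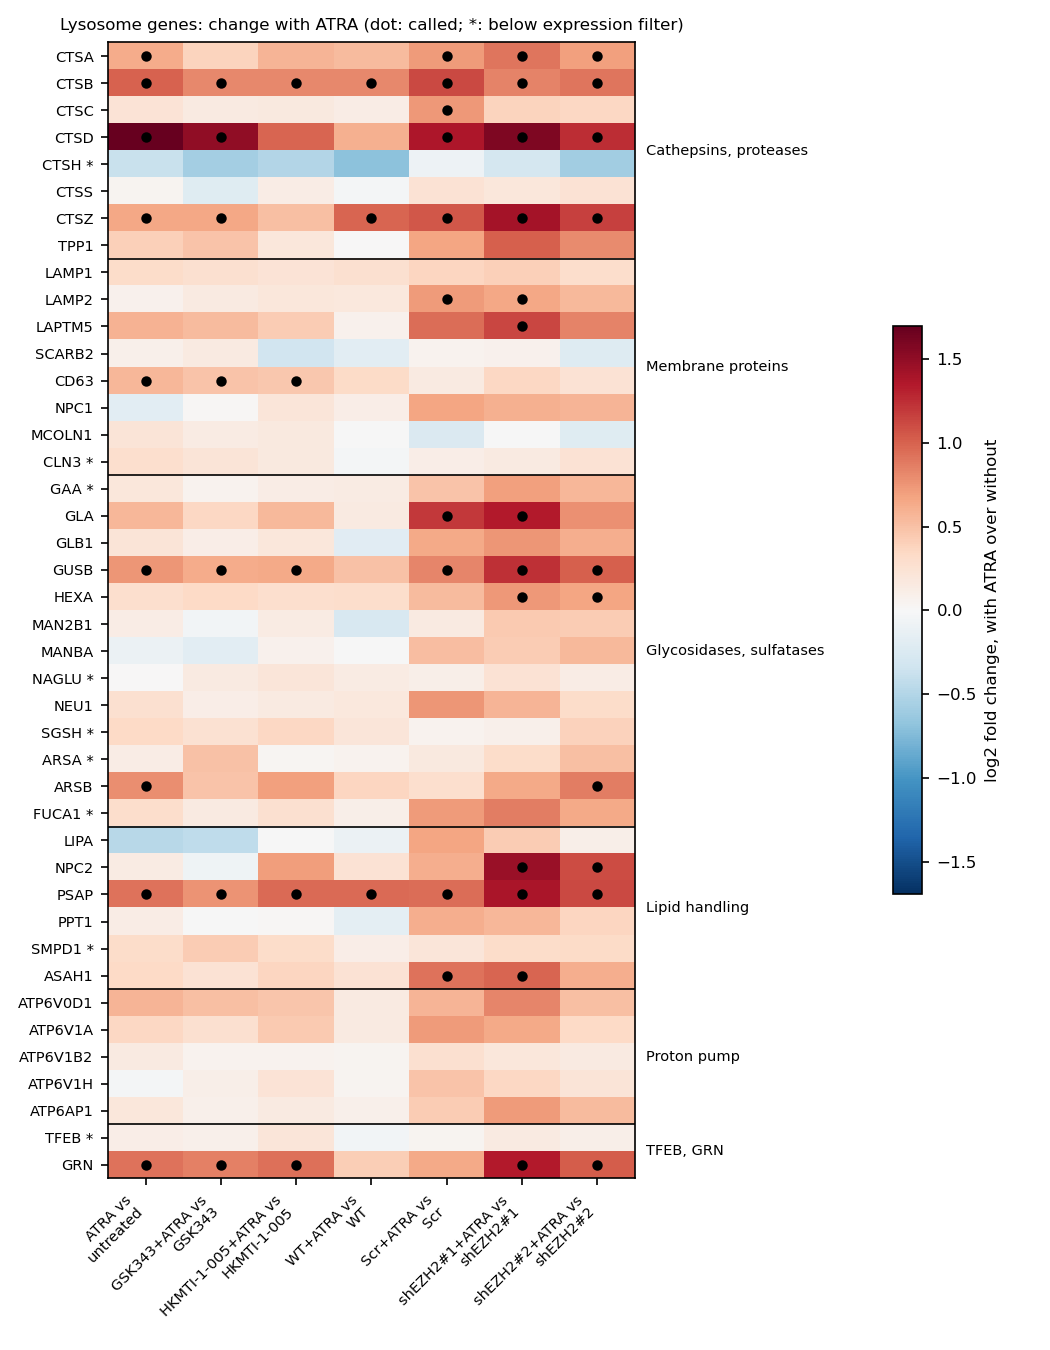
Log2 fold change with ATRA over without ATRA for each of the 42 lysosome genes (rows, grouped by role) in the 7 ATRA comparisons (columns). A black dot marks a called gene and an asterisk a gene below the expression filter. CTSB and PSAP carry a dot in every column, the proton pump rows carry none, and CTSH is negative throughout.

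The counts in the hairpin and WT groups moved with the arrays of high median. Without the 6 arrays, which leaves 2 Scr plus ATRA arrays and 1 Scr array, the Scr comparison kept 1 of its 10 calls, PSAP, and the members' median was 0.14 instead of 0.59. Without Scr replicate 3 alone it had 26 calls, and without Scr replicate 2 alone it had 4. Scr replicates 1 and 2 were also low over all genes past the expression filter (mean 8.66 and 8.64, against 8.95 in Scr replicate 3). The counts of this paragraph stand without the share of all genes called in the same setting. They show how far the calls depend on single arrays and are not a result particular to lysosome genes. Without the 6 arrays the WT comparison had 6 calls and a median of 0.27, shEZH2#1 had 14 and 0.43, and shEZH2#2 had 10 and 0.31.

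Differences between ATRA responses were tested as interaction terms, and no member was called in any of the 4. Counts at an unadjusted p under 0.05 are given without the share of all genes at that cut. For HKMTI-1-005 against no inhibitor, 1 member had an unadjusted p under 0.05, SCARB2, the receptor that carries glucocerebrosidase to the lysosome (-0.41, adjusted p = 1.00). For GSK343 against no inhibitor none did. For EZH2 KD against Scr there were 2, NPC2 (0.68, 95% interval 0.13 to 1.22, adjusted p = 0.492) and PSAP (0.30, 0.01 to 0.59, adjusted p = 0.591), and 0.0163% of all genes were called in each direction, against 0% in the other interactions. For the ATRA response of the inhibitor experiment against that of WT cells there was 1, CTSD (1.10, 0.13 to 2.06, adjusted p = 0.586). The intervals of PSAP for the inhibitors ran from -0.50 to 0.17 (GSK343) and from -0.30 to 0.37 (HKMTI-1-005). The missing calls do not show that the responses are alike.

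The methyltransferase inhibitors were compared with cells without an inhibitor, with and without ATRA. No lysosome gene was called with GSK343 against untreated cells (0.00543% of all genes were called higher, 0% lower) or with GSK343 plus ATRA against ATRA (0.00543% and 0%), and none had an unadjusted p under 0.05 in either (limma). Members' log2 fold changes ran from -0.17 to 0.27 with GSK343 and from -0.27 to 0.21 with GSK343 plus ATRA. For PSAP the difference was 0.06 (95% interval -0.18 to 0.30) without ATRA and -0.10 (-0.34 to 0.13) with ATRA.

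HKMTI-1-005 also gave no called member against its controls. Against untreated cells 0.0163% of all genes were called higher and 0.0706% lower, and 4 members had an unadjusted p under 0.05, all higher: CTSS, ARSB, CTSH and FUCA1. With HKMTI-1-005 plus ATRA against ATRA, 0.157% of all genes were called higher and 0.147% lower. At the unadjusted cut 5 members were higher, CTSS, NPC2, LIPA, ATP6V1A and NAGLU, and 2 lower, CTSD and SCARB2. The shares in this paragraph are of called genes. No share of all genes at the unadjusted cut is given, so these counts are not a result about lysosome genes. CTSD read 10.33, 10.28 and 10.45 with HKMTI-1-005 plus ATRA, against 11.36, 11.21 and 10.81 with ATRA. These arrays did not overlap, and the difference of -0.78 (95% interval -1.46 to -0.10) did not pass the test (adjusted p = 0.359). NPC2, which hands cholesterol to NPC1, read 8.67, 8.57 and 8.29 with HKMTI-1-005 plus ATRA, against 7.79, 7.99 and 7.91 with ATRA, also without overlap (0.61, 0.16 to 1.05, adjusted p = 0.229). Without the 6 knockdown arrays of high median, whose spread enters the fit, CTSD was called lower here.

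The inhibitors were also set against each other, at different doses (2.5 µM HKMTI-1-005 and 10 µM GSK343), so that compound and dose cannot be told apart. Without ATRA no member was called (0.0163% of all genes higher, 0.141% lower), and 3 had an unadjusted p under 0.05, CTSS, ARSB and GRN, all higher with HKMTI-1-005. No share of all genes at the unadjusted cut stands beside this count. With ATRA 1 member was higher and 1 lower, where 0.179% of all genes were higher and 0.25% lower. The cysteine protease CTSS, which trims the invariant chain of MHC class II, read 10.52, 10.55 and 10.37 with HKMTI-1-005 plus ATRA and 9.83, 9.81 and 9.91 with GSK343 plus ATRA (0.63, SE 0.137, adjusted p = 0.0136). SCARB2 read 7.56, 7.63 and 7.65 with HKMTI-1-005 plus ATRA and 8.15, 8.07 and 8.17 with GSK343 plus ATRA (-0.52, SE 0.133, adjusted p = 0.0462). Groups did not overlap in either gene, but the CTSS call was lost on leaving out any 1 of 4 arrays and the SCARB2 call any 1 of 6, and both were lost when arrays were centred on their medians.

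The knockdown experiment asked how the loss of EZH2 mRNA bears on these genes. Without ATRA 4 members were called higher in EZH2 KD than in Scr cells and none lower (1.96% of all genes were called higher, 0.489% lower). The sialidase NEU1 read 8.56, 8.82 and 8.73 with shEZH2#1 and 9.29, 8.54 and 8.95 with shEZH2#2, against 7.57, 7.51 and 8.39 with Scr (0.99, SE 0.197, adjusted p = 0.00381). LIPA read 8.44, 8.48 and 8.55 with shEZH2#1 and 8.83, 8.05 and 8.55 with shEZH2#2, against 7.30, 7.54 and 8.29 with Scr (0.77, SE 0.189, adjusted p = 0.0185). In both genes Scr replicates 1 and 2 lay far below all the others, while Scr replicate 3 lay close below the hairpin arrays in NEU1 and among them in LIPA.

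CTSS read 10.25, 10.32 and 10.07 with shEZH2#1 and 10.31, 9.90 and 10.23 with shEZH2#2, against 9.73, 9.51 and 9.87 with Scr (0.47, SE 0.118, adjusted p = 0.0202). NPC2 read 7.88, 7.80 and 7.98 with shEZH2#1 and 7.97, 7.33 and 7.47 with shEZH2#2, against 6.91, 6.60 and 7.40 with Scr (0.77, SE 0.189, adjusted p = 0.019). All 4 calls were lost without Scr replicate 1 or without Scr replicate 2, and without the 6 arrays of high median, against the 1 Scr array then left, no member was called and the members' median was 0.08 instead of 0.33. Taken singly, shEZH2#1 kept the 4 calls (2.07% of all genes were called higher) and shEZH2#2 only NEU1 (0.722%; 1.11, adjusted p = 0.00998).

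Against WT cells EZH2 KD gave no called member (0.0814% of all genes were called in each direction). At an unadjusted p under 0.05, 2 members were higher and 1 lower (limma), a count without the share of all genes at that cut. The controls themselves differed: Scr cells had 12 members called lower than WT cells and none higher, where 7.36% of all genes and 18.4% of genes past the expression filter were called lower and 1.27% higher. GLA, the alpha-galactosidase A, read 6.67, 6.73 and 7.90 with Scr and 7.94, 8.29 and 8.20 in WT cells (-1.04, adjusted p = 0.0259). CTSD read 8.49, 8.29 and 9.70 with Scr and 9.83, 9.89 and 9.78 in WT cells (-1.01, adjusted p = 0.0433). Again Scr replicates 1 and 2 were the low ones and replicate 3 lay near the WT arrays. PPT1 read 9.86, 9.99 and 11.21 with Scr and 11.28, 11.37 and 11.30 in WT cells (-0.96, adjusted p = 0.0222), and LIPA differed by -0.89 (adjusted p = 0.00946). The remaining 8 were CTSC, CTSS, LAMP2, LAPTM5, NEU1, NPC2, ATP6V0D1 and ATP6V1A. Without the 6 arrays, with 1 Scr array left, no member was called and the median was 0.02 instead of -0.31.

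With ATRA, EZH2 KD cells had higher lysosomal hydrolases and cofactors than Scr cells. Of the 42 members 8 were called higher and none lower (1.36% of all genes were called higher, 0.793% lower): 4 of 13 glycosidases and sulfatases (ARSB, GUSB, NEU1 and MAN2B1), 2 of 6 lipid genes (NPC2 and PSAP), 1 of 8 peptidases (CTSS) and GRN. No membrane protein and no proton pump subunit was called. The median was 0.43, against 0.01 over all genes, and 40 of 42 had a positive sign.

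NPC2 had the largest difference. It read 9.59, 9.33 and 9.15 with shEZH2#1 plus ATRA and 9.34, 8.38 and 8.37 with shEZH2#2 plus ATRA, against 7.59, 7.71 and 7.44 with Scr plus ATRA (1.44, SE 0.189, adjusted p = 1.59e-05). ARSB read 8.79, 8.63 and 8.78 with shEZH2#1 plus ATRA and 9.36, 8.53 and 8.32 with shEZH2#2 plus ATRA, against 7.88, 7.82 and 7.78 with Scr plus ATRA (0.91, SE 0.187, adjusted p = 0.00421). In both genes all 6 hairpin arrays lay above all 3 Scr arrays. These were the 2 calls that held without any single array and for each hairpin alone: NPC2 differed by 1.77 with shEZH2#1 and 1.11 with shEZH2#2 (adjusted p = 6.61e-06 and 0.00506), and ARSB by 0.90 and 0.91 (adjusted p = 0.0154 and 0.0245). NPC2 in the inhibitor experiment read 7.79, 7.99 and 7.91 with ATRA and 7.47, 8.00 and 7.79 in untreated cells (0.14, adjusted p = 0.826).

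GUSB read 10.59, 10.28 and 9.99 with shEZH2#1 plus ATRA and 10.37, 9.72 and 9.70 with shEZH2#2 plus ATRA, against 9.37, 9.64 and 9.37 with Scr plus ATRA (0.65, adjusted p = 0.00942). PSAP, whose arrays are given above, differed by 0.48 (adjusted p = 0.00505). GRN read 11.83, 11.66 and 11.37 with shEZH2#1 plus ATRA and 12.17, 11.34 and 10.95 with shEZH2#2 plus ATRA, against 10.62, 11.07 and 10.46 with Scr plus ATRA (0.84, adjusted p = 0.0161). The GUSB arrays of the hairpins all lay above those of Scr, while 1 hairpin array of PSAP and 1 of GRN lay below the highest Scr array. The alpha-mannosidase MAN2B1 read 9.31, 9.27 and 9.09 with shEZH2#1 plus ATRA and 9.83, 9.19 and 9.10 with shEZH2#2 plus ATRA, against 8.94, 8.86 and 8.32 with Scr plus ATRA (0.59, adjusted p = 0.0436). NEU1 read 9.59, 9.26 and 8.99 with shEZH2#1 plus ATRA and 9.78, 9.15 and 8.80 with shEZH2#2 plus ATRA, against 8.60, 8.82 and 8.30 with Scr plus ATRA (0.69, adjusted p = 0.0424). CTSS read 10.60, 10.47 and 10.15 with shEZH2#1 plus ATRA and 10.78, 10.29 and 10.11 with shEZH2#2 plus ATRA, against 9.84, 9.79 and 10.21 with Scr plus ATRA (0.46, adjusted p = 0.0236). Hairpin and Scr arrays overlapped in NEU1 and CTSS. The MAN2B1 and NEU1 calls were also lost with the replicate block, with 1 fit per experiment, on centring and without the 6 arrays of high median. Both were lost with either hairpin alone and with WT plus ATRA as the control. The NEU1 call was lost as well when the mean of its probe sets replaced the brightest one. Replicate 1 of shEZH2#2 plus ATRA was the highest of the 6 hairpin arrays in GRN, MAN2B1, NEU1, CTSS and ARSB.

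The count with ATRA was also 8 without the 6 arrays of high median, with 6 genes shared: MAN2B1 and NEU1 were lost, and CTSD and TPP1 gained. With the knockdown arrays fitted on their own it was 2. It was 4 without shEZH2#2 plus ATRA replicate 1 and 3 without Scr plus ATRA replicate 3. These recounts stand without the share of all genes called in the same setting. shEZH2#1 alone had 7 calls (1.37% of all genes were called higher) and shEZH2#2 alone had 2 (0.516%). With WT plus ATRA as the control in place of Scr plus ATRA, 7 members were called higher (0.641% of all genes were), CTSZ, GUSB, HEXA, ARSB, NPC2, PSAP and GRN, and NPC2 differed by 1.14 (adjusted p = 0.000498). Scr plus ATRA against WT plus ATRA gave 1 call, MCOLN1, a calcium channel of the lysosome, which was lower with Scr (-0.47, adjusted p = 0.0427). The neutrophil marker mean was 6.90 with shEZH2#1 plus ATRA and 7.03 with shEZH2#2 plus ATRA, against 6.52 with Scr plus ATRA. The promyelocyte marker mean was 9.96 with shEZH2#1 plus ATRA and 9.03 with shEZH2#2 plus ATRA, against 9.60 with Scr plus ATRA. The part of these lists in the differences was not tested.

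**Figure D4:**
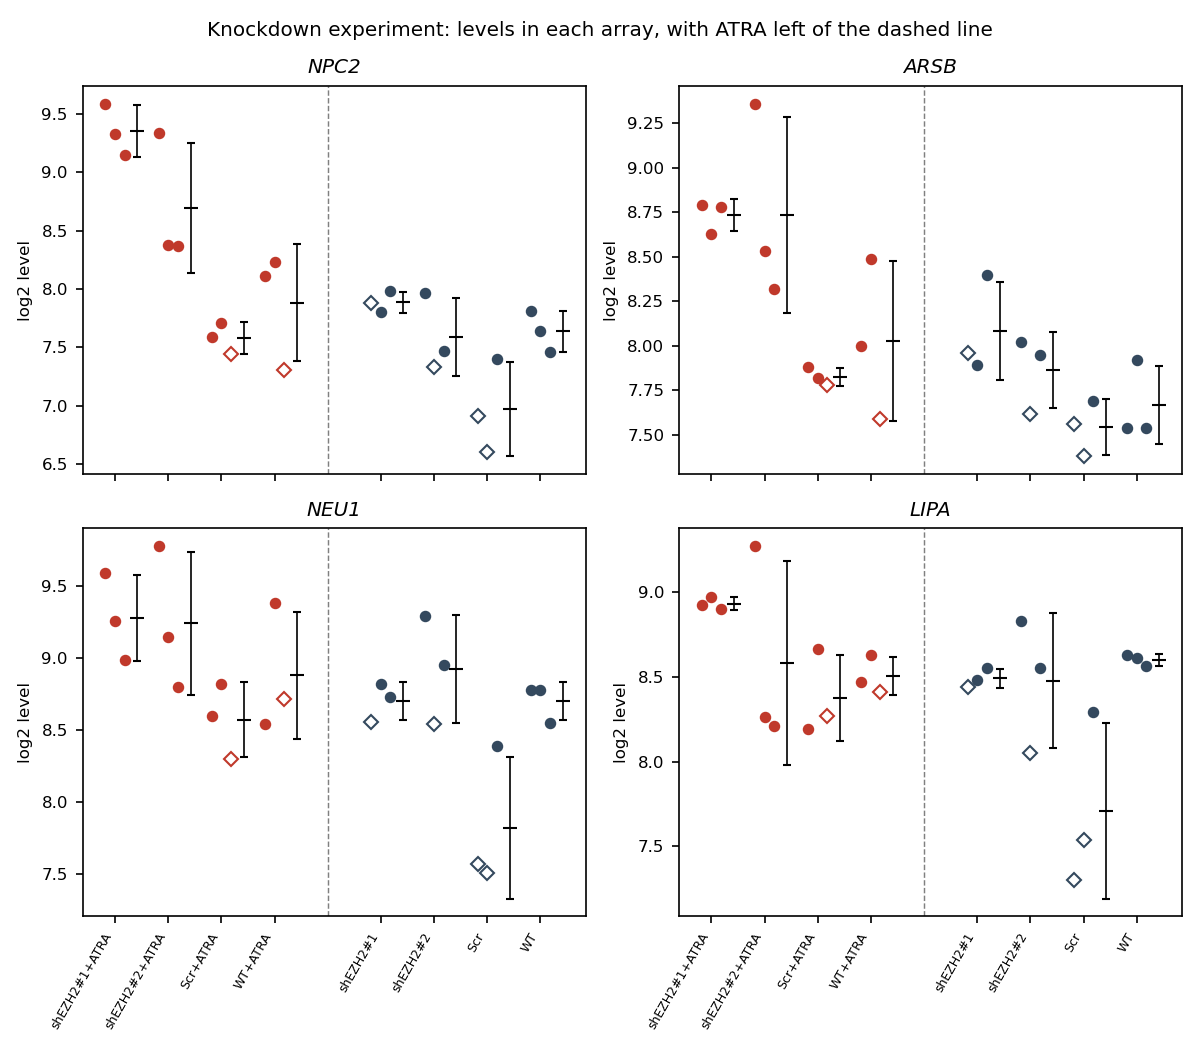
Log2 level of NPC2, ARSB, NEU1 and LIPA in the 24 arrays of the knockdown experiment, with ATRA left of the dashed line (open diamonds, arrays of high median; bars, group mean ± SD, n = 3). With ATRA all hairpin arrays of NPC2 (8.37 to 9.59) and ARSB (8.32 to 9.36) lie above the Scr arrays (7.44 to 7.71 and 7.78 to 7.88), and without ATRA Scr replicates 1 and 2 are the low arrays of NEU1 and LIPA.

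**Figure D5:**
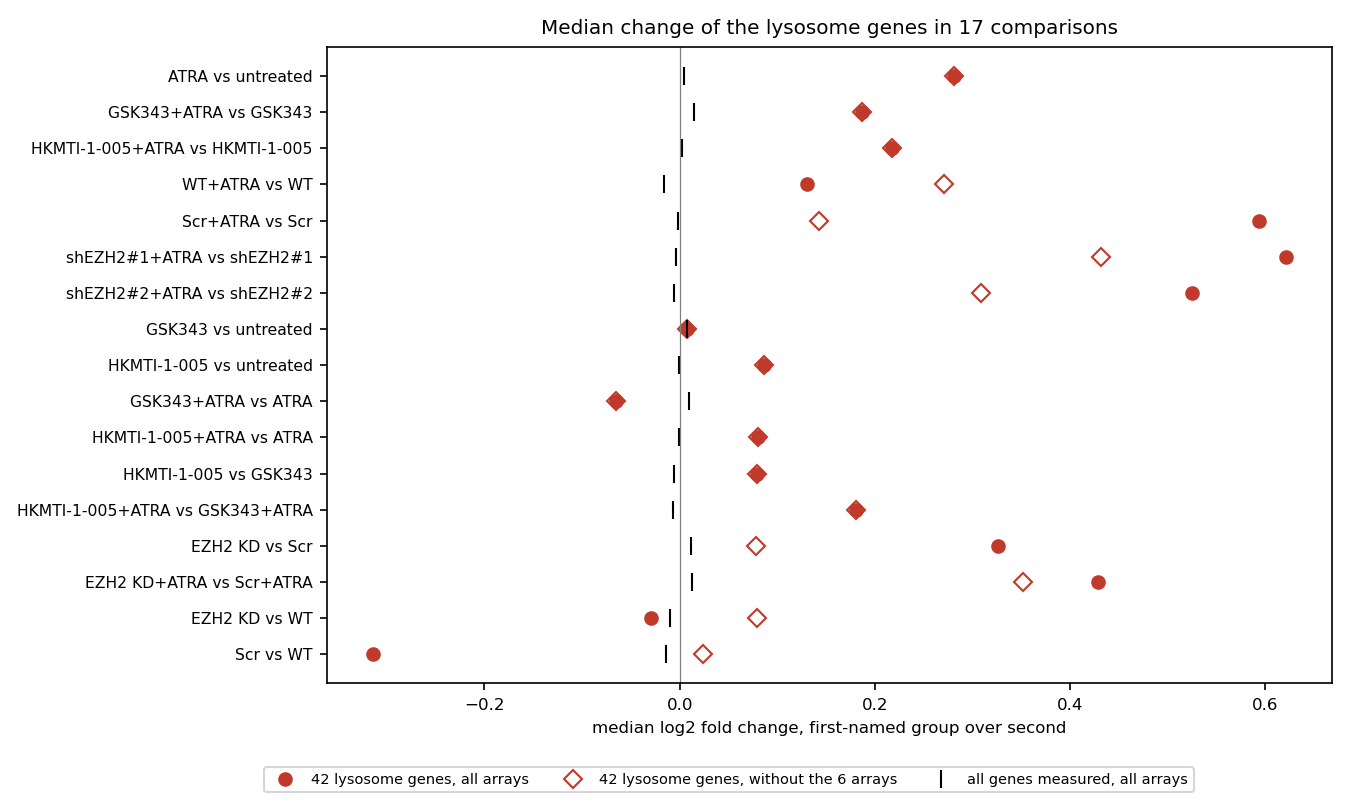
Median log2 fold change of the 42 lysosome genes in the 17 comparisons of groups (filled circles, all arrays; diamonds, without the 6 knockdown arrays of high median; ticks, all 18417 genes). The median is 0.33 with and 0.08 without those arrays for EZH2 KD against Scr, where 1 Scr array is left, and 0.43 and 0.35 for EZH2 KD plus ATRA against Scr plus ATRA.

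Further genes of the pathway were read from lists made beside the 42 members. Shares below can be set against the 2.09% of all genes called higher and 3.14% lower with ATRA (5.23% and 7.85% past the expression filter). Among 21 measured other hydrolases, 3 (14.3%) rose with ATRA against untreated cells and none fell: IDS, the iduronate sulfatase (0.87, adjusted p = 0.00792), GALC, the galactocerebrosidase (0.68, adjusted p = 0.0192), and the fucosidase FUCA2 (0.64, adjusted p = 0.0112). The list's median was 0.29. Among 19 other membrane proteins 4 (21.1%) rose and 1 (5.26%) fell, with a median of 0.18. Of these, CD68, a glycoprotein of myeloid endosomes and lysosomes, averaged 9.52 ± 0.202 with ATRA and 8.66 ± 0.136 in untreated cells (SD, n = 3 each; 0.86, adjusted p = 0.00282), the channel TPCN1 rose by 0.78 (adjusted p = 0.0177), and the transporter ABCA2 fell by 0.80 (adjusted p = 0.00429). None of 15 other proton pump subunits was called, with a median of 0.13, nor any of 19 regulators of the TFEB and mTORC1 branch (-0.01). Of 20 trafficking genes 1 rose, IGF2R, the receptor that carries mannose 6-phosphate tagged hydrolases (0.41, adjusted p = 0.0447), with a list median of 0.06.

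With HKMTI-1-005 plus ATRA against ATRA, 2 genes of these lists rose, the sialic acid exporter SLC17A5 (0.45, adjusted p = 0.0224) and FLCN, a regulator of mTORC1 at the lysosome (0.52, adjusted p = 0.0377). Both were also higher with HKMTI-1-005 plus ATRA than with GSK343 plus ATRA (0.46 and 0.50, adjusted p = 0.0135 and 0.0318). In EZH2 KD plus ATRA against Scr plus ATRA, 3 of 21 other hydrolases were called higher (1.36% of all genes were), FUCA2, PLBD2 and SCPEP1, and CD68 differed by 1.23 (adjusted p = 1.81e-05).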

How the data were processed

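Affymetrix Human Gene 1.0 ST arrays were hybridised with RNA of HL-60 cells, 42 in all. Per the methods, the authors ran GC-RMA in Partek Genomics Suite and removed batch and date effects (versions and batch names not given in the sources used here). No further scaling was applied to the deposited values, which were read as log2 because they run from 3.18 with a median of 5.4 and GC-RMA writes log2. What the batch correction did to the spread between arrays could not be examined.

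The arrays hold 33297 probe sets, 19460 of them with 1 gene symbol, 1754 with several and 12083 with none. Those with a single symbol gave 18417 genes, each by its brightest probe set. Only the 7367 genes in the top 40% by mean (6.88 or more) could be called. One limma model (version 3.58.1, R 4.3.3) held the 14 group means of all arrays, with 28 residual degrees of freedom, moderated variances and Benjamini-Hochberg adjustment over the 18417 genes. Calls required an adjusted p no higher than 0.05 together with a fold of 1.3 or more, in 17 comparisons of groups and 4 interactions. Plots were made with matplotlib 3.10.9.

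Members, lists and tests were chosen with earlier results of these data known. Values in every array of the groups compared are given for members called in 4 or more of the 7 ATRA comparisons or in an inhibitor or knockdown comparison (the 4 with the largest change where over 8 were called), and for TFEB and LAMP1. CTSH, and the arrays of CD63 and ARSB with ATRA against untreated cells, were added after their values were seen. Other lists are shown by up to 3 called genes each.

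Data of 18417 genes were simulated with a spread per gene taken from these arrays, with 50 altered genes at each size. ATRA against untreated cells recovered 10% of 1.3-fold, 56% of 1.5-fold, 82% of 2-fold and 100% of 4-fold changes, with 4 false calls among 18217 genes. For EZH2 KD against Scr these were 16%, 64%, 94% and 100%, with 4 false calls. These rates hold for the simulated data only. In the real arrays scatter differed between groups: the SD of the lysosome gene mean was 0.03 in untreated cells and 0.375 with Scr. The knockdown arrays of high median were also low over the genes past the expression filter together. The rates therefore do not show how many real calls are false, least of all in comparisons with Scr. No pair of arrays held identical values.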

Additional observations from a re-analysis of the deposited data

Results flagged for a closer look

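Of 84 gene and group sets of 6 hairpin arrays tested for a far value (42 members, with and without ATRA), 2 had one, both in the same array, shEZH2#2 plus ATRA replicate 1. MAN2B1 read 9.83 there, while the other 5 hairpin arrays with ATRA read 9.09 to 9.31. SGSH, a sulfatase below the expression filter, read 5.60 there, while the other 5 read 4.63 to 4.99. Chance alone flags about 1 in 20 such groups.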

How the results depend on the processing

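Calls of members were recounted under other settings of the analysis and, chosen after seeing the data, with each hairpin alone or the other control. The counts of this section stand without the share of all genes called in the same setting. They show how far the calls depend on the settings and are not a result particular to lysosome genes. With 3 arrays a group, changes below 2-fold are often missed and calls near the threshold depend on single arrays. In 142 of 186 settings the count stayed within 1.5 times that reported. These include comparisons without a call in either fit, so that the share overstates how stable the calls were. No call changed sign except among the falls in Scr against WT. There CTSC (0.03) and LAMP2 (0.02) had a positive sign without the 6 arrays of high median, and CTSC (0.10) and LAPTM5 (0.01) in Scr plus ATRA against WT plus ATRA. With the replicate number as a block, HKMTI-1-005 plus ATRA against GSK343 plus ATRA had 1 call. The block moved no other count by over 1.5 times (8 calls for ATRA against untreated, 6 for EZH2 KD plus ATRA against Scr plus ATRA). Same-numbered arrays had a median correlation of 0.08 in the inhibitor and -0.02 in the knockdown experiment. For arrays of different numbers it was -0.01 and -0.007. The authors' correction for batch and date, already in these values, could remove a pairing. Whether the numbers pair the arrays therefore cannot be told.

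With 1 fit per experiment there were 14 calls for ATRA, 11 with GSK343, 13 with HKMTI-1-005, 5 with Scr and 6 with shEZH2#2. There were 4 for HKMTI-1-005 plus ATRA against ATRA, 5 against GSK343 plus ATRA, 1 for EZH2 KD against Scr, 2 for EZH2 KD plus ATRA against Scr plus ATRA and 0 for Scr against WT. Centring arrays on their medians gave 3 calls for ATRA with HKMTI-1-005 and 0 for HKMTI-1-005 plus ATRA against GSK343 plus ATRA, and moved the median of all genes in Scr against WT to -0.17 (-0.01 uncentred). For the arrays the methods name false discovery rate testing over all conditions, which was not repeated here. The unpaired t-test, which the methods name for their experiments in general, gave 0 calls in every comparison with Benjamini-Hochberg adjustment. Unadjusted, it gave 12 for ATRA with GSK343, 13 with HKMTI-1-005, 20 with shEZH2#1 and 5 with shEZH2#2, 2 for HKMTI-1-005 against untreated and 2 against GSK343, 7 for HKMTI-1-005 plus ATRA against ATRA and 6 against GSK343 plus ATRA, 14 for EZH2 KD plus ATRA against Scr plus ATRA, 1 for EZH2 KD against WT and 4 for Scr against WT.

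Leaving out the 6 arrays left 1 array in Scr, whose spread was then taken from the other groups. There were 9 calls for ATRA with HKMTI-1-005, 6 in WT, 1 with Scr, 1 for HKMTI-1-005 plus ATRA against ATRA, and 0 for EZH2 KD against Scr and for Scr against WT. The causes of these moves were not tested. shEZH2#2 alone gave 1 call without and 2 with ATRA, and Scr plus ATRA against WT plus ATRA gave 1. Leaving out 1 array at a time gave 6 to 8 calls for ATRA, 4 to 7 with GSK343, 2 to 5 with HKMTI-1-005, 2 to 4 in WT, 4 to 26 with Scr, 9 to 15 with shEZH2#1 and 5 to 13 with shEZH2#2. It gave 0 to 24 for EZH2 KD against Scr, 3 to 12 for EZH2 KD plus ATRA against Scr plus ATRA, 0 to 21 for Scr against WT and 0 to 1 for HKMTI-1-005 plus ATRA against GSK343 plus ATRA. The ATRA response of the inhibitor experiment against WT spans both experiments and could not be refitted within one. The unpaired t-test was not run for interactions.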

Other observations

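Genes that lie beside the lysosome in the cell's degradation and granule systems were read with the same calls. None of 23 autophagy genes was called with ATRA against untreated cells, with a median log2 fold change of 0.05. In Scr against WT cells 6 of these 23 were called lower (GABARAP, GABARAPL1, GABARAPL2, ATG4A, ATG12 and TAX1BP1) and 1 higher (ATG7), where 7.36% of all genes and 18.4% of those past the expression filter were called lower and 1.27% higher. The list's median was -0.32, against -0.20 over the genes past the filter, and Scr replicates 1 and 2, 2 of the arrays of high median, enter that comparison.

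On a list of primary granule and related myeloid genes 13 were measured. Of these, 1 rose (7.69%, against 2.09% of all genes) and 3 fell (23.1%, against 3.14%) with ATRA against untreated cells. A place on this list, such as that of SERPINB10, does not show that the product lies in the granule. BPI, a bactericidal protein of the azurophil granule, averaged 9.13 ± 0.191 with ATRA and 6.97 ± 0.16 in untreated cells (SD, n = 3 each; log2 fold change 2.16, adjusted p = 0.00208, limma). SERPINB10 averaged 8.76 ± 0.567 and 10.79 ± 0.406 (-2.03, adjusted p = 0.00259), and CTSG, a granule serine protease, averaged 7.48 ± 0.226 and 8.86 ± 0.546 (-1.38, adjusted p = 0.00622). ELANE, neutrophil elastase, was also lower with ATRA (-0.75, adjusted p = 0.0212). The granule proteases CTSG and ELANE thus had the opposite sign to the lysosomal cathepsins CTSB, CTSD and CTSZ in the same arrays. This holds for these called genes and not for the lists as a whole. BPI rose, and the cathepsin CTSH, below the expression filter and not called, had a negative sign.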
